A study of Mus musculus with 9 samples.

Results

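BAP1 binding was examined at 10 genes of the interleukin-3 (IL-3) receptor and STAT5 pathway, on which the growth of Ba/F3 cells depends. The genes were chosen by name: the receptor chains *Il3ra*, *Csf2rb* and *Csf2rb2*, the kinase *Jak2*, the transcription factors *Stat5a* and *Stat5b*, and the STAT5 target genes *Pim1*, *Cish*, *Socs1* and *Socs2*. All 10 were found among the 37273 genes of GENCODE release M1 on mouse build mm9, of which 22367 are protein-coding. For each gene, the peaks with their middle within 1 kb of any annotated transcription start site (TSS) were taken as promoter peaks, and all peaks within the gene or 50 kb of it were listed with their signed distance, negative being upstream.

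Ba/F3 is a murine B cell precursor line that needs IL-3, which was supplied here in medium with 5% WEHI conditioned medium. The data are 1 list of 13164 BAP1 peaks, each 200 bp wide, made by ChIP-Seq from wild type cells with 52.8 µg of an anti-BAP1 antibody and from cells stably expressing triple-FLAG-tagged BAP1, kept in 2 µg/mL puromycin, with 5 µg of the anti-FLAG M2 antibody. Each immunoprecipitation was sequenced once. In the list used, peaks have no score or height and are not assigned to 1 of the antibodies. Every value below is thus a count or a position without a test. The depth of the libraries is unknown, and the 4 input and 3 H2AK119ub samples were not analysed here.

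In this pathway IL-3 binds the alpha chain encoded by *Il3ra*, which pairs with a beta chain, and JAK2 bound to the beta chain phosphorylates STAT5. STAT5 dimers then enter the nucleus and bind a palindromic DNA element, the gamma-activated site. Among the genes they switch on are a survival kinase and several SH2 domain proteins that turn the receptor off again, which makes the pathway self-limiting. BAP1 is a nuclear deubiquitinase that removes ubiquitin from histone H2A at the lysine of H2AK119ub, a mark of Polycomb repression.

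A promoter peak was present at 8 of the 10 genes, that is 80%, whereas 39.6% of protein-coding genes and 26.2% of all annotated genes had one. *Il3ra*, *Csf2rb*, *Jak2*, *Stat5a*, *Pim1*, *Cish*, *Socs1* and *Socs2* had a promoter peak, and *Csf2rb2* and *Stat5b* had none. Receptor chains, kinase, transcription factors and target genes each had at least 1 gene with a peak, and the 2 genes without one were each the neighbouring paralog of a gene with one. With 10 genes chosen by name the share has no test.

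The peaks at *Cish* and *Socs2*, whose products both restrain the pathway, each held a pair of STAT5 sites, searched as TTCNNNGAA, a motif that reads the same on both strands. The windows of 30 bases below, on mm9 and 5′ to 3′ along the gene, show the sites in capitals, together with the single site at the edge of the *Csf2rb* peak and the same stretch of its paralog.
Cish peak, pair of sites, chr9:107198985-107199014, plus strand: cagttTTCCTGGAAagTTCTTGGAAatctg
Socs2 peak, pair of sites, chr10:94879533-94879562, minus strand: gcggaTTCCTGGAAagTTCCTGGAAagcgg
Csf2rb peak, 1 site, chr15:78156368-78156397, plus strand: aaTTCTGAGAAtcaggcgaagctgcttgcg
Csf2rb2 counterpart, 1 site, chr15:78136139-78136168, minus strand: aaTTCTGAGAAgcaagcaaagctgcttgtg

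At *Cish* and *Socs2* the sites of the pair started 11 bases apart, with 2 bases between them. The 20 bases of the pair were identical at 19 positions between the genes, which lie on chromosomes 9 and 10. The middle of the pair lay 42 bp upstream of the nearest GENCODE TSS of *Cish* and 56 bp upstream of that of *Socs2*. The RefSeq start of *Cish* instead fell on the first base of its pair. Of all 13164 peaks, 17 (0.129%) held 2 or more STAT5 sites, and only the peaks at *Cish* and *Socs2* held a pair at this spacing. In the other 15 peaks the sites started 15 to 128 bases apart. The spacing was read from these peaks before it was counted, so the count describes them and is no independent support.

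A pair of TTCNNNGAA matches at this spacing occurred 386 times in the genome, 16 times within 1 kb of an annotated TSS. Only the pairs of *Cish* and *Socs2* lay inside a peak. Of the other 14 pairs near a TSS, 4 had the middle of a peak within 1 kb, namely those near *Prmt1*, *E2f7*, *Tspan31* and 6530401N04Rik, genes named after their values were seen.

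A STAT5 site was present in 4 of the 9 promoter peaks of the 10 genes, against 518 of 13164 peaks (3.93%) in the whole list, 3.6% of the gene-proximal peaks and 5.01% of the gene-distal ones. The 4 were the *Csf2rb* peak with 1 site, the upstream *Cish* peak with 1, the *Cish* peak at the TSS with 2 and the *Socs2* peak with 2. *Cish* and *Socs2* were chosen as STAT5 target genes, so the share was not independent of the choice and says nothing about BAP1 peaks. The peaks of *Il3ra*, *Jak2*, *Stat5a*, *Pim1* and *Socs1* held none, but a peak 16527 bp downstream of the *Socs1* TSS held 1. The site of the upstream *Cish* peak and that of the peak downstream of *Socs1* are shown in the same way.
Upstream Cish peak, 1 site, chr9:107197847-107197876, plus strand: cctacccataTTCCAAGAAactggcttctt
Peak downstream of Socs1, 1 site, chr16:10769022-10769051, minus strand: acccgcttgctTTCCAGGAActctgcctgc

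The share of peaks with a STAT5 site went down with GC content, from 6.33% in the quintile of peaks poorest in GC, through 5.91%, 3.85% and 2.63%, to 1.03% in the richest quintile. Both *Cish* peaks were in the poorest quintile with 43% and 53% GC, and the *Csf2rb* peak was in quintile 2 with 56%. By contrast the *Socs2* peak, with 71.5% GC, was in quintile 4, where sites were less frequent. The *Jak2* and *Pim1* peaks, with 83% and 84% GC, were in the richest quintile and had no site.

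The wider window was 1 kb on either side of the TSS nearest the peak, or of the first TSS without a peak. There *Cish* held 4 sites, at 47 and 36 bp upstream and 58 and 75 bp downstream. The first pair lay inside the peak at the TSS and the second beyond its edge. *Jak2*, *Stat5a* and *Socs2* held 2 sites each, *Csf2rb*, *Csf2rb2* and *Socs1* 1 each, and *Il3ra*, *Stat5b* and *Pim1* none. At least 1 site was found at 44.8% of protein-coding promoters, at least 2 at 12.5% and at least 4 at 0.434%. For these shares the TSS was that of the longest transcript, so the 2 counts differ in the TSS used. The *Socs2* peak, with its 2 sites, lay 3770 bp upstream of that TSS. Holding a site within 1 kb was thus common over protein-coding genes, while holding 4 was not.

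**Figure D1:**
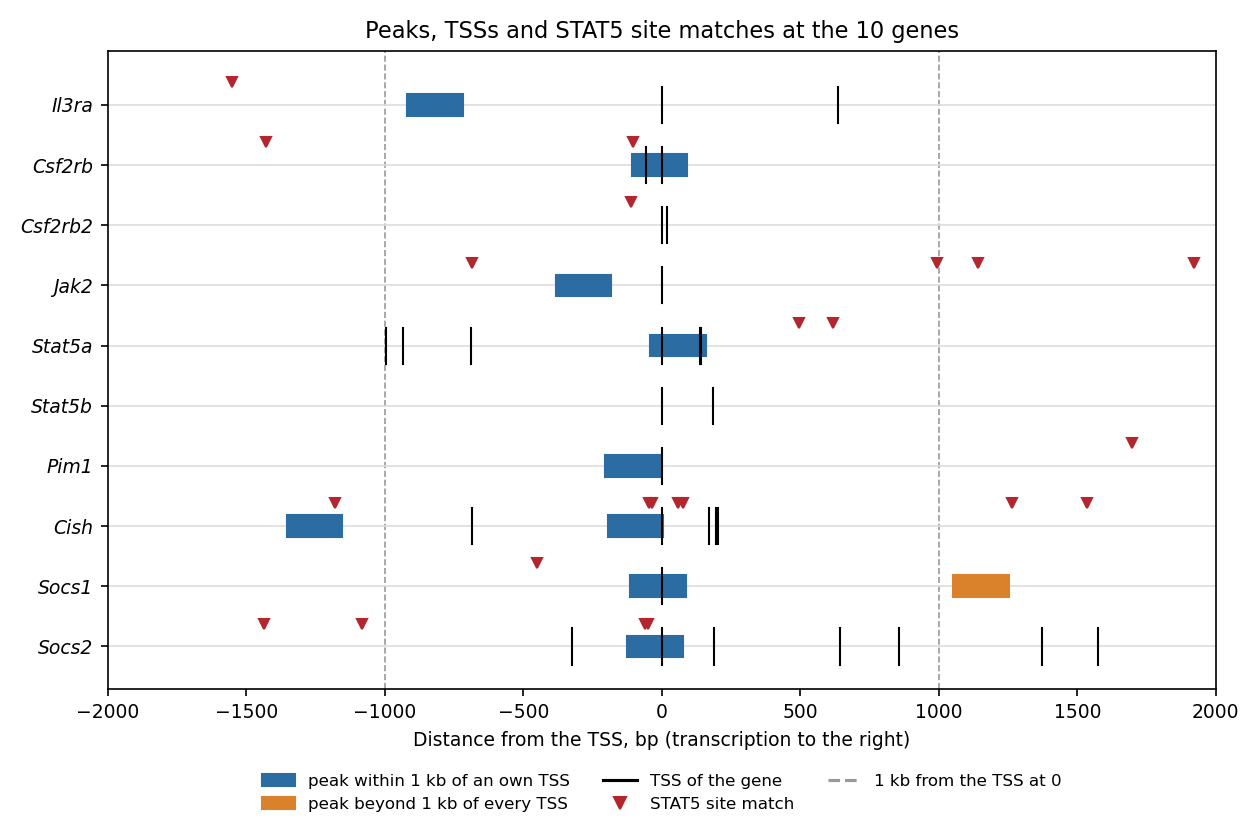
Each row is 1 of the 10 genes and the horizontal axis is the distance in bp from the TSS nearest its peak, or from the first TSS where there is no peak, with transcription to the right. Bars are peaks of 200 bp, black ticks are TSSs, triangles are STAT5 site matches and dashed lines mark 1 kb; peaks lie at 8 of the 10 genes, and the paired triangles under or at the peak stand at *Cish* and *Socs2*.

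Among the receptor genes, the *Il3ra* peak (chr14:15178091-15178290) lay farthest from its gene. *Il3ra* encodes the chain that binds IL-3 itself and lies on the plus strand at chr14:15179009-15188004. Its peak had its middle 819 bp upstream of the TSS and did not reach the gene, whereas the median distance over the 9 promoter peaks was 96 bp and over all 10073 gene-proximal peaks 53 bp. Only 1.26% of the gene-proximal peaks lay more than 800 bp from a TSS. It was the peak nearest the limit of 1 kb on the inside, and the *Socs1* peak at 1152 bp was the nearest on the outside.

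*Csf2rb*, which encodes the beta chain shared by the receptors for IL-3, IL-5 and GM-CSF, had a peak over its TSSs. The gene lies on the plus strand at chr15:78156420-78184277, and the peak (chr15:78156368-78156567) had its middle 10 bp upstream of the nearest TSS and covered 2 TSSs. Of its bases, 109 were annotated as untranslated exon. It was the peak nearest to a TSS among the 9.

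*Csf2rb2*, which encodes the beta chain that in mice pairs with the IL-3 receptor alone, had no promoter peak. It lies on the minus strand at chr15:78112947-78136052, so that both genes start from the stretch between them, with 20368 bp between their nearest TSSs. The nearest peak to *Csf2rb2* was that of *Csf2rb*, 20415 bp upstream. The 2 promoters are near copies. The 200 bases of the *Csf2rb* peak aligned to *Csf2rb2* with 186 identical bases (93%), and the aligned stretch had its middle 18 bp upstream of the *Csf2rb2* TSS. Their coding sequences were 92.9% identical, and the site at the edge of the *Csf2rb* peak had a counterpart with the same letters 110 bp upstream of *Csf2rb2*, with 26 of 30 bases identical in the windows shown.

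Near copies can share reads, so the words of 50 bases, the length of the reads, that occur once in mm9 were counted. In the *Csf2rb* peak 129 of 151 words occurred once (85.4%), and in the counterpart at *Csf2rb2* 125 of 147 (85%). The remaining 22 words in each occurred at most 2 times. The larger share of words at either promoter thus had a single exact match. Matches with mismatches were not counted, so the count cannot tell whether reads there had a single place. How the authors treated reads with several matches is not given in the sources used here, and its part in the absence of a *Csf2rb2* peak was not tested. Every word in the peaks of the other 7 genes, within 1 kb of their TSS nearest the peak and within 1 kb of the first TSS of *Stat5b* occurred once.

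*Jak2*, which encodes the tyrosine kinase bound to the beta chain, had 1 promoter peak (chr19:29325936-29326135). It lay 283 bp upstream of the only TSS of the gene (chr19:29326318-29387570, plus strand) and ended before it. With 83% GC and 33 CpG dinucleotides in 200 bases, it had a higher GC content than 98.3% of all peaks. A second peak within 50 kb lay 12327 bp beyond the end of the gene, at the promoter of *Insl6*.

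The pair of STAT5 genes differed in the same way as the beta chains. *Stat5a* (chr11:100720665-100746483, plus strand) has 7 annotated TSSs, and its peak (chr11:100721617-100721816) lay over 3 of them, 57 bp downstream of the nearest and 1051 bp downstream of the first. The peak was thus at the alternative first exons inside the gene and not at its outermost start. *Stat5b* (chr11:100642045-100712038, minus strand) starts 8627 bp away in the opposite direction and had no promoter peak, its nearest being that of *Stat5a*, 9678 bp upstream. The other 3 peaks near *Stat5b* lay beyond its 3′ end, 2 at the promoter of *Rab5c* and 1 at that of *Ghdc*.

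Unlike the beta chains, the STAT5 promoters were not copies of each other. The coding sequences of *Stat5a* and *Stat5b* were 88.9% identical, but the *Stat5a* peak had no match at the *Stat5b* TSS better than that of the same sequence reversed (alignment scores of 24 and 28). All words of 50 bases within 1 kb of the *Stat5a* TSS nearest the peak and of the first *Stat5b* TSS occurred once in the genome.

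*Pim1* encodes a serine/threonine kinase that promotes survival and is a target gene of STAT5. Its peak (chr17:29627553-29627752) lay 105 bp upstream of its only TSS (chr17:29627757-29632390, plus strand) and ended just before it. It had the highest GC content of the 9 promoter peaks, 84%, above 98.9% of all peaks, and 5 GC boxes.

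*Cish*, which encodes an SH2 domain protein induced by STAT5 that blocks its docking to the receptor, was the only gene of the 10 with 2 promoter peaks. Of protein-coding genes 10.1% had 2 or more. The gene lies at chr9:107198357-107205115 on the plus strand. The first peak (chr9:107197688-107197887) lay 570 bp upstream of the outermost TSS. It counted as a promoter peak through this TSS alone, and it was not one with a window of 500 bp. The second (chr9:107198846-107199045) lay 96 bp upstream of the TSS 684 bp further in, and it is the one with the pair of sites. All of it was within an untranslated exon of the transcript that starts at the outermost TSS. Gm17040, a processed transcript on the opposite strand, spanned the middles of both *Cish* peaks. Its TSS was 578 bp from the middle of the second. With 43% and 53% GC the *Cish* peaks were the poorest in GC of the 9, at percentiles 3.7 and 14.3 of all peaks.

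*Socs1* encodes a direct inhibitor of JAK kinases. It had the most listed peaks away from promoters of other genes, 1 at its promoter and 2 beyond 1 kb of every TSS. These 2 were assigned to it by position alone. The gene is short (chr16:10783901-10785629, minus strand). The promoter peak (chr16:10785544-10785743) had its middle 14 bp upstream of the TSS and covered it. A second peak (chr16:10784378-10784577) lay 1152 bp downstream within the coding exon, in a stretch of 73% GC. The remaining one (chr16:10769003-10769202) lay 14799 bp beyond the 3′ end and held the STAT5 site shown above. *Socs1* was the only gene of the 10 with such distal peaks, while 22.6% of protein-coding genes had at least 1 within the gene or 50 kb.

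*Socs2*, which encodes a related suppressor known from growth hormone signaling, had 1 peak within the gene and 50 kb (chr10:94879416-94879615). The gene lies on the minus strand at chr10:94847996-94879814 with 13 TSSs. The peak lay 24 bp upstream of the nearest TSS and 299 bp downstream of the outermost one, but 3770 bp upstream of the TSS of its longest transcript. A long noncoding RNA on the opposite strand, 5730420D15Rik, started 494 bp from the middle of the peak.

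The *Cish* and *Csf2rb* peaks, the poorest in GC, are left out here. The bases of 5 other promoter peaks outside untranslated exons are given as examples, each from a peak with a GC box. They are written on mm9, 5′ to 3′ along the gene, with matches to GGGCGG (GC box), CCGGAA (ETS core), CACGTG (E-box) and the STAT5 site, searched on both strands, in capitals.
Socs2, chr10:94879492-94879615, minus strand: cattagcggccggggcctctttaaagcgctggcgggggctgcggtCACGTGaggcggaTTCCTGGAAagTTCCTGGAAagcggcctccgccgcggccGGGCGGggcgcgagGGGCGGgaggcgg
Socs1, chr16:10785630-10785743, minus strand: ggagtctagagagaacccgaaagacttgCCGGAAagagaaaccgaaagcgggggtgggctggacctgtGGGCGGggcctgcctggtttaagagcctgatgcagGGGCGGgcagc
Pim1, chr17:29627553-29627752, plus strand: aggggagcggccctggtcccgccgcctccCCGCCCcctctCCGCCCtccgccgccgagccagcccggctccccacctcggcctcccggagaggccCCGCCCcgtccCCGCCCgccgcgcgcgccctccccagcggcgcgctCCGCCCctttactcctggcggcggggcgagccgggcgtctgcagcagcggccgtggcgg
Jak2, chr19:29325936-29326135, plus strand: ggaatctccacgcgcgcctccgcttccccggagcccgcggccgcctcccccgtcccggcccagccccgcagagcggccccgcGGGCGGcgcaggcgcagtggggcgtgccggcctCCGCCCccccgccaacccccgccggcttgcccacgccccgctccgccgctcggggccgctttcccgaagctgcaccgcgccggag
Il3ra, chr14:15178091-15178290, plus strand: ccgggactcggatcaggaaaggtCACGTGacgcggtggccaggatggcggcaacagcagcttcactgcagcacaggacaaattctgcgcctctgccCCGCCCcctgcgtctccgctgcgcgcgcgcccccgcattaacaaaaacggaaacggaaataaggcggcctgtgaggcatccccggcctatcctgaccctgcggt

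*Pim1* and *Jak2* showed runs of C and G with GC boxes, on 1 strand at *Pim1* and on both at *Jak2*, and no other match, whereas *Socs2* had an E-box, its pair of STAT5 sites and GC boxes within 124 bases. The E-box was present in 2 of the 9 peaks, at *Il3ra* and *Socs2*, and in 7.04% of all peaks. The GC box was in 7 of 9 (59.5% of all peaks), and only the *Csf2rb* peak and the upstream *Cish* peak lacked it. The ETS core was in 1 of 9, at *Socs1* (24.8% of all peaks).

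The other 6 motifs searched were found in few of the 9 peaks. The CCAAT box (CCAAT) was in 1, against 28.5% of all peaks, and the cyclic AMP element (TGACGT) in 1, against 9.28%, both in the *Cish* peak at the TSS. The NRF1 site (GCGCATGC) was in 1, at *Socs1*, against 4.82% of all peaks. The YY1 site (AAGATGG), held by 5.58% of all peaks, was in none of the 9. The FOXK site (TGTTTAC) and the TATA box (TATAAA), held by 2.49% and 4.73%, were likewise in none. The motifs were searched on both strands, and with 9 peaks no difference from the whole list is shown.

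Whether the 10 promoters were of the kind that usually had a BAP1 peak was examined by the CpG ratio, the observed over the expected number of CpG dinucleotides within 500 bp of the TSS. For all genes the TSS was that of the longest transcript. Over protein-coding genes the share with a promoter peak was 4.56% in the lowest quintile of the ratio, then 11.2%, 38% and 67.3%, and 76.7% in the highest. *Jak2* (ratio 0.897) and *Pim1* (0.913) were in the highest quintile, and *Il3ra* (0.755), *Cish* (0.656) and *Socs1* (0.661) in quintile 4. *Stat5a* (0.603), *Socs2* (0.397) and *Stat5b* (0.432) were in quintile 3, the first 2 with a peak and *Stat5b* without. *Csf2rb* had a ratio of 0.185 and a peak, in a quintile where 11.2% of genes had one, and its neighbour *Csf2rb2* had a ratio of 0.163 and no peak, in a quintile with 4.56%. The ratios of *Csf2rb*, *Socs2* and *Cish* were at the lower bounds of their quintiles, 0.184, 0.394 and 0.656. In the next lower quintiles the shares were 4.56%, 11.2% and 38%.

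The ratio of genes with several TSSs depended on the one used. At its first TSS, 28196 bp from that of the longest transcript, *Stat5b* had a ratio of 0.863, in the highest quintile. *Socs2* had 0.793 at the TSS nearest its peak, in quintile 4. *Cish* had 0.304 at its outermost TSS and *Stat5a* 0.213, both in quintile 2. *Csf2rb* differed little between its TSSs, with 0.185 and 0.186.

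**Figure D2:**
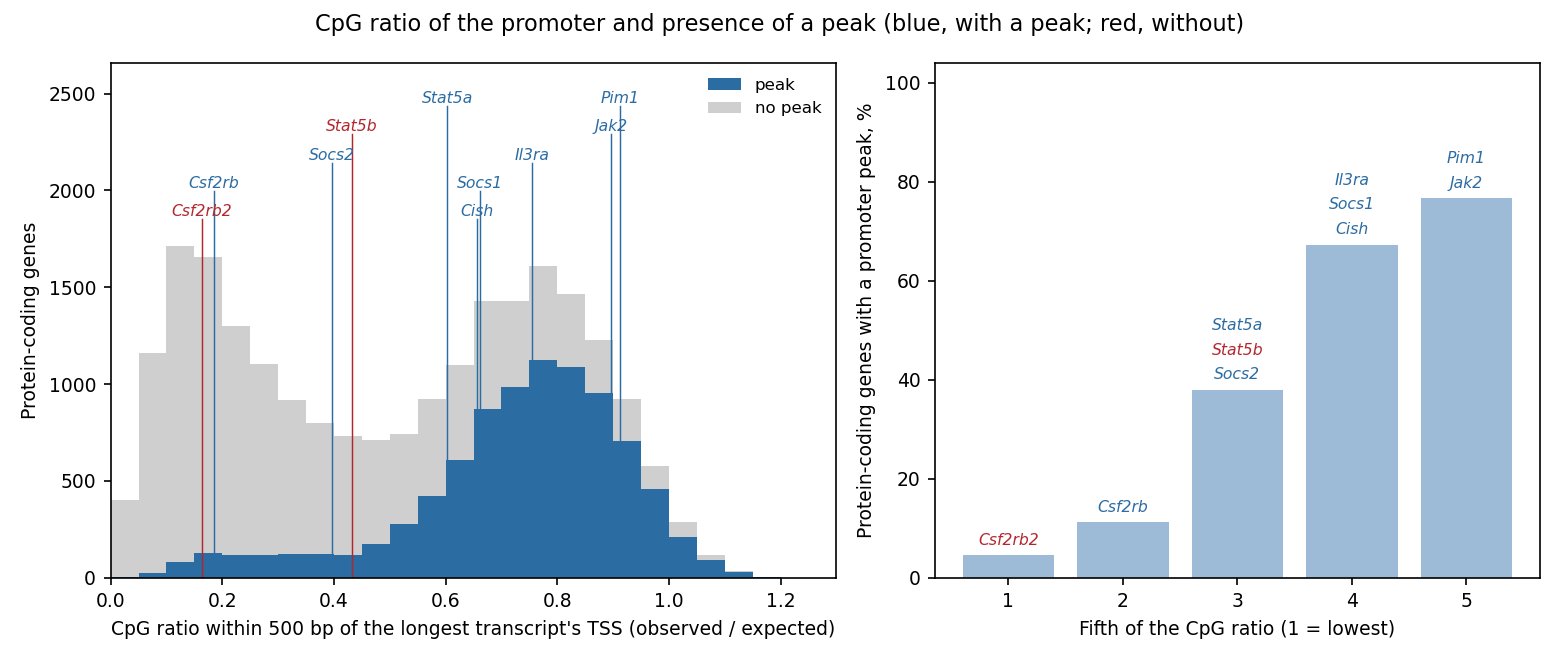
The left panel counts protein-coding genes by the CpG ratio within 500 bp of the TSS of the longest transcript, split into those with and without a promoter peak, with lines at the ratios of the 10 genes; the right panel gives the percentage of protein-coding genes with a promoter peak in each quintile of the ratio, with the genes written above their quintile. *Csf2rb* has a peak at a ratio of 0.185, in a quintile with 11.2%, and *Stat5b*, *Stat5a* and *Socs2* share quintile 3.

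Within the genes and 50 kb on either side, 20 different peaks were listed. Of these, 9 were at the promoters of the 10 genes, 9 only at those of other genes and 2 distal, both in the window of *Socs1*. The peaks per gene ranged from 1 at *Il3ra*, *Csf2rb2*, *Stat5a*, *Pim1* and *Socs2* to 5 at *Cish*, with a median of 1.5, against a median of 1 (quartiles 0 and 3) over protein-coding genes. *Cish* owed 3 of its 5 to neighbours, *Mapkapk3* upstream and *Hemk1* and 6430571L13Rik downstream. The 4 peaks of *Stat5b* were all at other genes. The remaining peaks at neighbours lay at 1700061J05Rik near *Csf2rb*, at *Insl6* near *Jak2* and at A630055G03Rik near *Socs1*.

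**Figure D3:**
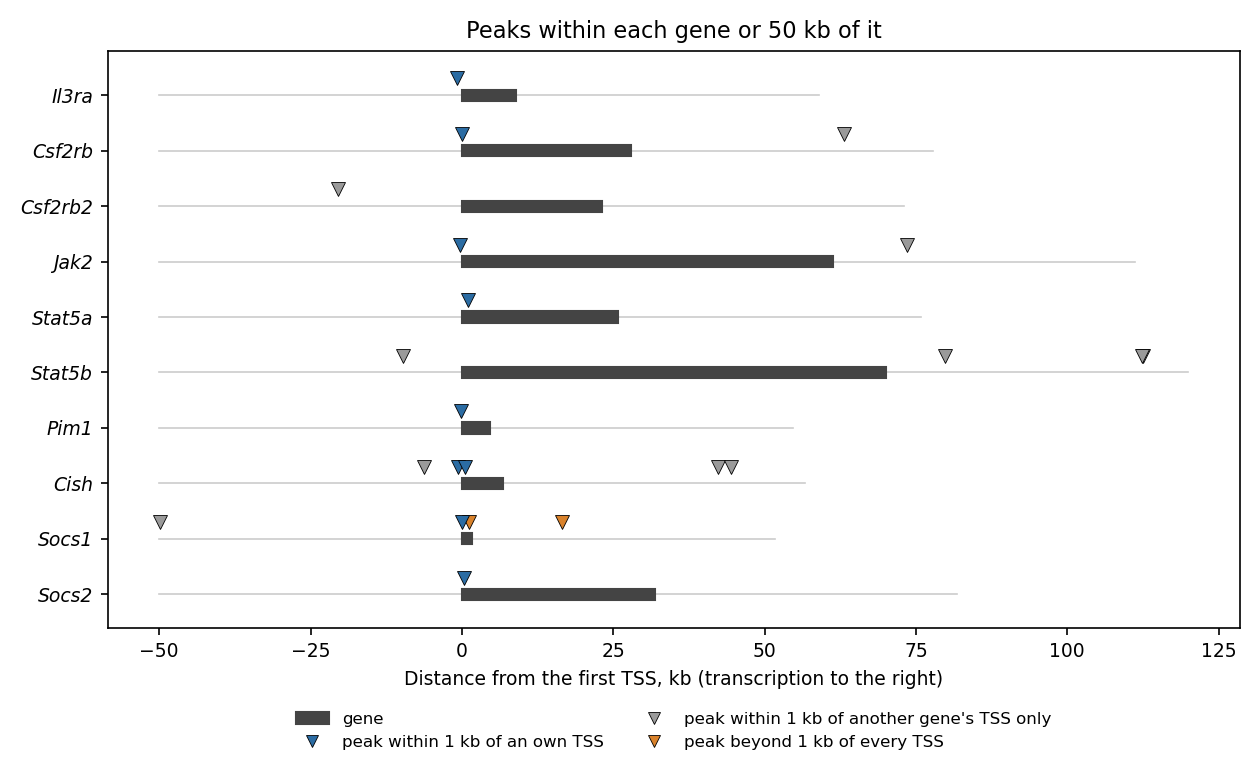
Each row shows 1 gene as a dark bar with 50 kb on either side as a line, and the horizontal axis is the distance in kb from its first TSS with transcription to the right. Triangles are the middles of peaks, coloured by whether they lie within 1 kb of a TSS of the gene, only of another gene, or of none; *Socs1* is the only row with distal peaks, and *Csf2rb2* and *Stat5b* have only peaks of other genes.

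Other genes of the pathway were counted in 6 lists of 71 genes in all, of which 46 (64.8%) had a promoter peak. Beside each list stands the mean share of protein-coding genes with a promoter peak in the CpG quintiles of its genes. Taken at the TSS of the longest transcript, it was 48.5% for the 10 genes and 47.8% for the 71. It depended on the TSS used. *Stat5b* at its first TSS and *Socs2* at that nearest its peak were in quintiles with 76.7% and 67.3%, not 38%. At their outermost TSSs *Cish* and *Stat5a* were in a quintile with 11.2%. None of the 5 other ligands and receptors of the beta chain family had a promoter peak, *Il3*, *Il5*, *Il5ra*, *Csf2* and *Csf2ra*, where the quintiles gave 13.9%. Of 13 other receptors that signal through STAT5, 1 had one, *Crlf2*, while *Il2ra*, *Il2rb*, *Il2rg* and *Il7r* were among those without (22.6% from the quintiles). Beside these, *Il3ra* and *Csf2rb* were 2 of 3 receptor genes with a peak.

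Of 8 other JAK and STAT genes 6 had a promoter peak, among them *Jak1*, *Jak3* and *Stat2*, and *Tyk2* and *Stat4* had none (46% from the quintiles). Of 16 other brakes on the pathway 14 had one, including *Socs3*, *Socs4*, *Socs5* and *Socs6*, while the phosphatase genes *Ptpn6* and *Ptprc* had none (64.4%). In the RAS-MAPK and PI3K branches 17 of 19 had one, such as the adaptors *Shc1*, *Grb2* and *Gab2* and the exchange factor *Sos1*, and *Inpp5d* and *Lyn* had none (59.8%). Of 10 other STAT5 target genes 8 had one, among them *Pim2*, *Bcl2l1*, *Mcl1* and *Osm*, and *Pim3* and *Bcl6* had none (49.2%). Of the 60 promoter peaks of these lists 3 (5%) held a STAT5 site, at *Socs3*, *Osm* and *Cbl*, the last named after its values were seen, and that of *Osm* held 2 sites, 87 bases apart.

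**Figure D4:**
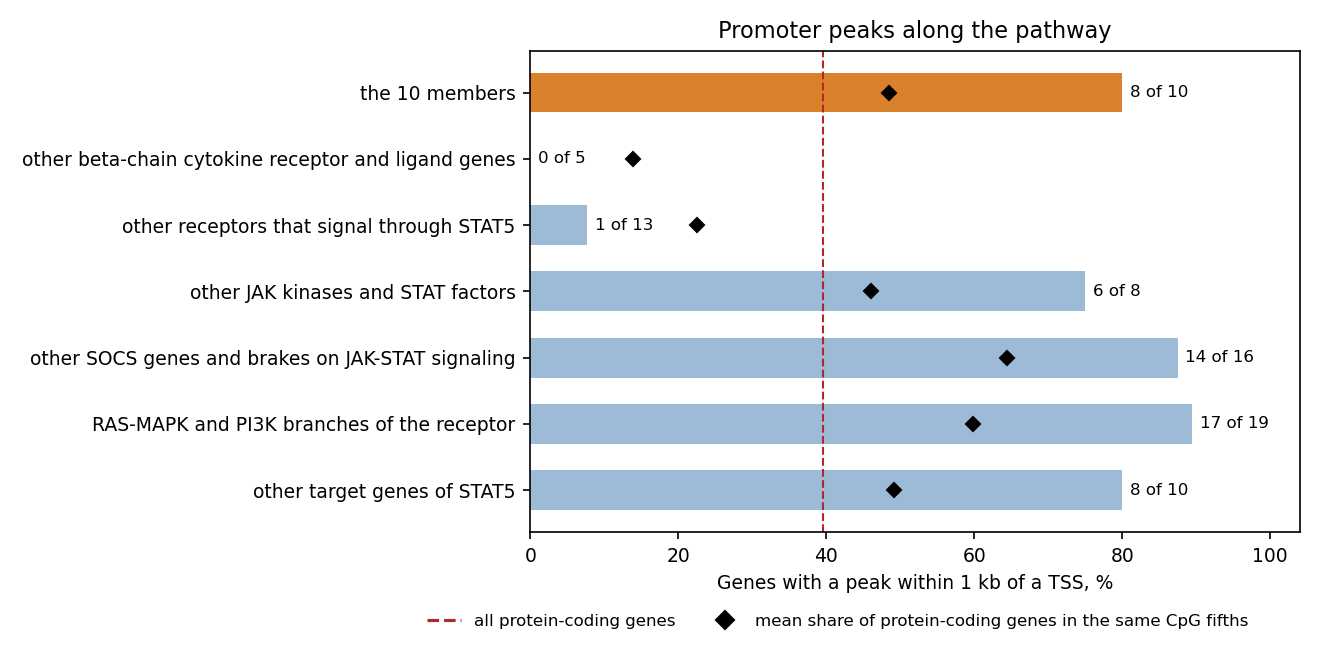
Bars give the percentage of genes in each list with a peak within 1 kb of a TSS, with the counts beside them. The dashed line is the share of all protein-coding genes, 39.6%. Diamonds are the mean share of protein-coding genes with such a peak in the list's CpG quintiles, at the TSS of the longest transcript. The receptor and ligand lists lie below the dashed line, the lists of signaling proteins and target genes above it, and the 10 genes stand at 8 of 10.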

How the data were processed

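The authors mapped the paired reads of 50 bases to mm9 with Bowtie 1.0.0 and called peaks against input DNA with MACS, version 1.4.2 in the submitters' processing notes. Each peak was deposited with its chromosome, its start and end in bp and a name that covers both antibodies, without a score or height. The paper also reports normalized read intensities around the peak summits, which were not used here. How reads with several matches were treated, at which threshold peaks were kept and how the samples were merged are not given in the sources used here; another threshold would change every count. There were 0 columns of per-sample values without a sample.

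Peaks were placed on GENCODE M1 genes, without those of the mitochondrion, by their start plus 100 bp, with Python 3.11.15, numpy 2.4.6, samtools 1.23.1 and Biopython 1.88 (local alignments). Distances and windows were tested on simulated data. The 10 genes and the lists were chosen with earlier results of these data known. The text names all 10 genes, genes with a TSS within 1 kb of their peaks, and in each list up to 4 genes with and 4 without a promoter peak, in the order listed; 1 gene that this rule names is not reported here, and others were named after their values were seen. GC quintiles, site pairs, alignments of paralogs, sites in the lists' peaks and CpG ratios at other TSSs were added after the data were seen. Alternatives were other windows, flanks, TSS sets, the edge of the peak and merging of peaks within 500 bp.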

Additional observations from a re-analysis of the deposited data

How the results depend on the processing

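The number of the 10 genes with a promoter peak was 8 with windows of 2 kb and 5 kb, with the nearest edge of the peak and with protein-coding transcripts only. It was 7 with a window of 500 bp, where *Il3ra* was lost, and 7 with the TSS of the longest transcript, where *Socs2* was lost; the shares of protein-coding genes were 38.6% and 37%. Distal peaks rose from 2 to 5 with a flank of 100 kb, which added 2 at 92516 and 92621 bp from *Pim1* and 1 at 95025 bp from *Cish*. The counts of promoter peaks (7 to 10) and of all peaks (14 to 29) stayed within 1.5 times the values given. The CpG ratio of *Stat5b* was 0.432 at the TSS of its longest transcript and 0.863 at its first TSS, an alternative added after seeing the data. No paired analysis was possible because the result comes from no test and the list merges both samples. Depth is unknown, so the absence of a peak at *Csf2rb2* or *Stat5b* says only that none was listed.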

Other observations

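At RefSeq starts, whose promoter sequences on GRCm38 were matched to mm9 for 11 of 11 entries of 8 of the genes, the *Cish* peak at the TSS lay 45 bp upstream, the *Pim1* peak 78 bp upstream of the first of its starts and 2378 bp upstream of the other, and the *Jak2* peak 258 bp upstream. The upstream *Cish* peak lay more than 1 kb upstream of the RefSeq start of *Cish*, so it was no promoter peak by that start. The *Stat5a* peak lay 82 bp upstream of the inner of its RefSeq starts and 746 bp downstream of the outer one. *Stat5b* and *Csf2rb2* had no peak within 1 kb of a RefSeq start either, the nearest being 9821 bp and 20316 bp upstream.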
